A study of Homo sapiens with 24 samples.

Results

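HepG2 cells that carried a control short hairpin RNA (shCtrl) were compared after 6 h and after 3 h of actinomycin D, a drug that binds DNA and blocks transcription. The comparison rests on 4 of the study's 24 RNA-seq libraries, 2 at each time, chosen by the hairpin and the hour in their titles. HepG2 is a human hepatocellular carcinoma line. Per the labels, the hairpin was delivered by lentivirus made in HEK293T cells, the infected cells were kept under puromycin at 1 ug/mL as a stable line, and actinomycin D was given at 5 ug/mL, so the 6 h and the 3 h cells share the hairpin, the selection and the drug and differ in its duration. The labels do not say whether the line is a pool or a clone. Other libraries set beside these were shCtrl cells after 1 h of the drug and shCtrl cells without it (0 h). Lines with a hairpin against SETD2 (shSETD2) or METTL14 (shMETTL14) were used after 6 h and 3 h, and for CTGF also at 0 h. The submitters call each pair biological replicates without describing separate cultures, so a p-value here reflects the spread of 2 libraries per group, which may be technical.

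The level of an mRNA reflects both its synthesis and its removal, and once synthesis is blocked, the amount that is left reports on removal. Most mRNAs are lost after their poly(A) tail is shortened, by decapping and digestion from the front end or by the exosome from the tail end, and messages of transcription factors and signalling feedback genes are known for short lives, while those of plasma proteins, ribosomal proteins and metabolic enzymes are known for long ones. A message may also hold its level for some hours before it declines, which a single rate does not describe.

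Each gene was measured as CPM, its count scaled to a common library total after TMM scaling, which aligns the libraries on the bulk of their genes. A CPM value is thus a share of the RNA in the library, not an amount per cell: the deposited table holds 0 entries of the ERCC spike-in RNA that the labels mention, and when all mRNA declines, a share rises for any transcript that is lost more slowly than the rest. In these bulk libraries fewer cells and less RNA per cell cannot be told apart. Library totals were 21.5 and 18.7 M counts at 6 h and 24.5 and 24.0 M at 3 h, so that 3 counts stood for 0.155 and 0.177 CPM at 6 h and 0.125 and 0.128 CPM at 3 h. The 10 most abundant genes took 15% of the counts in each 6 h library, against 13.7% and 14.1% at 3 h. All 10 hepatocyte markers checked were expressed, with a summed level of 97800 to 100000 CPM at 6 h and 74800 to 77000 CPM at 3 h. Of 10 fibroblast markers 2 passed the filter on low counts (summed level 21.4 to 22.2 CPM at 6 h and 17.3 to 19.6 CPM at 3 h, with COL1A2 and DCN at 0). Of 12 blood and immune markers 5 passed, and their sum, 2240 to 2420 CPM at 6 h and 1730 to 1850 CPM at 3 h, was mostly LYZ, while PTPRC, CD3E, MS4A1, HBB and HBA2 were at 0. Of 9 HEK293T markers 1 passed (4.61 to 5.03 CPM at 6 h and 7.69 to 8.10 CPM at 3 h, with NEFL, NEFM, HOXA9 and HOXC10 at 0). Of 10 endothelial and stellate markers 5 passed (4110 to 4240 CPM at 6 h and 2890 to 2920 CPM at 3 h, mostly RELN, with KDR and TEK at 0).

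Between 3 h and 6 h the shares of 5734 of 14887 tested genes changed in shCtrl cells. At 6 h 2941 genes (19.8% of those tested) were lower and 2793 (18.8%) higher than at 3 h, by edgeR's quasi-likelihood test with Benjamini-Hochberg adjustment and a threshold of 0.05 on the adjusted p, which is the test behind every adjusted p below. Falls were larger than rises: 436 of the called genes fell by at least 1 on the log2 scale and 64 rose by at least 1. The median log2 change of all tested genes was 0.02, with the 10th percentile at -0.71 and the 90th at 0.44. In 5731 of the 5734 called genes the 6 h libraries did not overlap the 3 h libraries. The call itself favours such genes, so this count adds no support to it, and the share over all tested genes was not counted. Over the preceding 3 h, from 0 h to 3 h, 61.1% of the tested genes changed: 4918 (33%) were higher and 4178 (28.1%) lower. That comparison shares the 3 h libraries with the later one, so the values of the intervals are set side by side below and not correlated. The split of the calls depends on the scaling: with library size alone as the scale the median moved to -0.11, and 1313 genes were higher and 4015 lower.

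The 8 largest falls among genes of at least 5 CPM ran from -2.21 to -1.82 on the log2 scale. TNFRSF1A (ENSG00000067182, chromosome 12, 6437923 to 6451280, GRCh37), which encodes the receptor through which tumour necrosis factor signals, stood at 9.80 and 9.05 CPM at 6 h, against 41.7 and 38.1 CPM at 3 h. Its 6 h mean was 23.7% of its 3 h mean (log2 change -2.08, SE 0.0838, adjusted p = 4.67e-14). At 0 h it had stood at 72.0 and 73.2 CPM, so its log2 change over the preceding 3 h was -0.86, and the difference between the intervals itself passed the test (adjusted p = 1.4e-07). CEBPA (ENSG00000245848, chromosome 19, 33790840 to 33793470), the liver transcription factor C/EBP alpha, had 5.75 and 5.86 CPM at 6 h, against 23.4 and 20.8 CPM at 3 h (log2 change -1.93, SE 0.115, adjusted p = 1.63e-11). It had fallen almost as steeply before 3 h, by 1.62 on the log2 scale, and the difference between its intervals did not pass (adjusted p = 0.18). The remaining 6 of the 8 largest falls were TMEM115, a Golgi membrane protein (-2.21); NDNL2, a subunit of the SMC5/6 complex, also called NSMCE3 (-2.16); MUL1, a mitochondrial ubiquitin ligase (-1.97); CCDC12 (-1.87); NXT1, a partner of the mRNA export receptor (-1.83); and FAM222A (-1.82). For all 8 the 6 h libraries lay below the 3 h libraries, which the choice of these genes required. TMEM115 overlaps CYB561D2 and CCDC12 overlaps NBEAL2, and since the sources do not say whether counting used strand, their counts are uncertain. In the authors' deposited table the shCtrl half-lives of these genes were short, 1.72 h for TNFRSF1A and 1.5 h for CEBPA. Those half-lives belong to the same study, so they are no independent support for the falls.

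**Figure D1:**
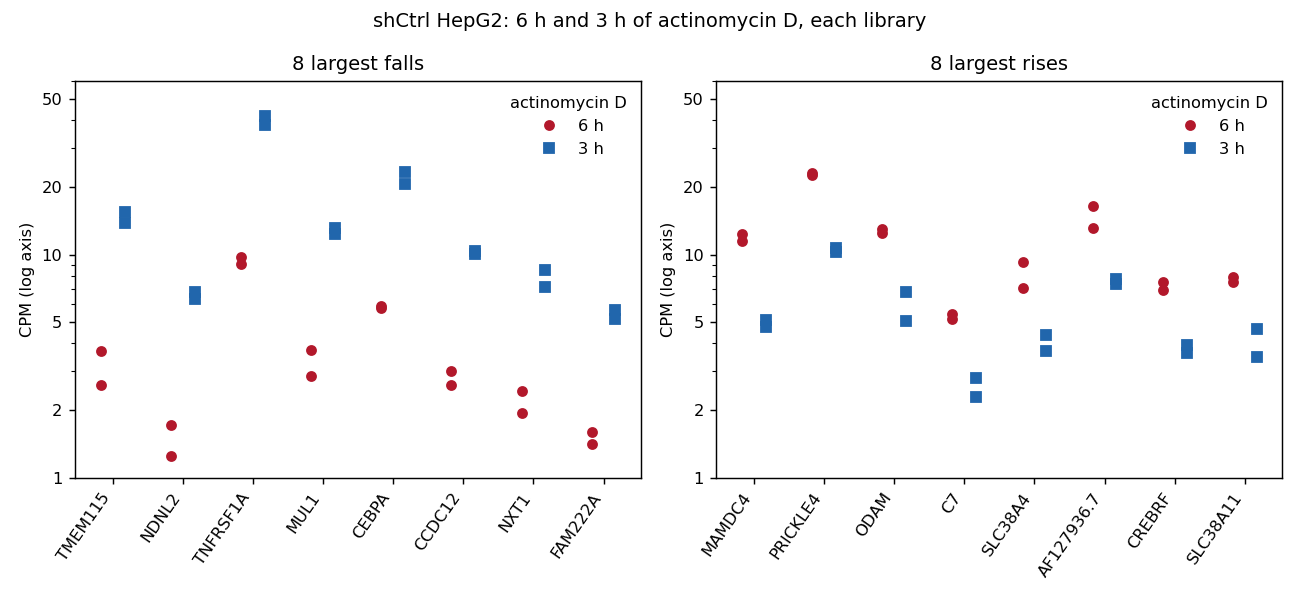
Share of the 8 largest falls (left panel) and 8 largest rises (right panel) in each shCtrl library, in CPM on a log axis, with the 6 h libraries as circles and the 3 h libraries as squares. In none of the 16 genes do the 6 h and 3 h points overlap, which was a condition of their choice.

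Of these 8 falls, TNFRSF1A, NDNL2 and CCDC12 carry the letters TGTANATA, the core of the element that Pumilio proteins bind, in the last 300 bases of their 3′ UTR. Pumilio proteins recruit the deadenylase complex to their targets, and the 8 letters were searched on the sense strand of GENCODE release 29 transcripts. The sites are printed 5′ to 3′ with 10 bases on each side and the match in capitals. They stand together with sites of TIPIN and DAB2, whose share held until 3 h and then fell, and of the signalling inhibitor SPRED2. These are a selection: other genes named below also carry the letters, HK2 among those that held, while CTGF and GTPBP4 do not.
TNFRSF1A: tgtggactttTGTACATAcactaaaatt
NDNL2: tgactttggaTGTATATAtgctctttat
CCDC12: cacatgtggaTGTACATAtgtctgtata
TIPIN: agttttgagaTGTACATAtatactgaat
DAB2: acaactgtttTGTACATActtattttct
SPRED2: aaatgtaccgTGTAAATAtaaacacatc

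Among the genes with a 3′ UTR of at least 300 bases, 347 of 2362 (14.7%) that were lower at 6 h than at 3 h held TGTANATA there, against 1022 of 9863 (10.4%) over all genes. Of the genes that were higher at 6 h, 130 of 1969 (6.60%) held it. In the set that held until 3 h and then fell the share was 47 of 311 (15.1%). The AU-rich pentamer ATTTA, whose repeats mark unstable messages, was in the same window of 51.7% of the lower genes, 44.7% of the higher genes and 48.6% of all genes, and the longer TTATTTATT in 1.74%, 1.63% and 2.00%. TTATTTATT contains ATTTA, and any ATTTA within it counts for both. Genes lower at 6 h had a median 3′ UTR of 1373.5 bases, against 945 bases over all genes, and genes higher at 6 h one of 746 bases. Single-exon genes made up 111 of 2770 (4.01%) of the lower genes, 12 of 2664 (0.45%) of the higher genes and 293 of 12607 (2.32%) of all genes with a matched transcript. Across these 12607 genes, which share the same libraries and are no independent replicates, the late change had a Spearman correlation of -0.135 with 3′ UTR length and of 0.0843 with the GC content of the transcript. A match is a description of these letters and shows no binding.

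A group of 421 genes (2.83% of those tested) held its share until 3 h and then fell. Membership required a call of lower at 6 h than at 3 h, a call for a lower late than early change, a log2 change from 0 h to 3 h of at most 0.25 in size, and both 6 h libraries below all 3 h and 0 h libraries. An early change within that limit could itself be called, as it was among others for GTPBP4 (-0.22), PSMD6 (0.22) and HK2 (0.24). PSMD6 and HK2 therefore also meet the rule of the group, described below, that was higher at 3 h and then lower. The median late log2 change of the 421 was -0.51, with the middle of the set between -0.69 and -0.38. The group is sensitive to the 3 h libraries, since it held 260 genes without shCtrl 3 h replicate 1 and 259 without shCtrl 3 h replicate 2.

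CTGF (ENSG00000118523, chromosome 6, 132269316 to 132272513), a secreted matricellular protein and a target of the YAP pathway, showed this course at high abundance. It stood at 175 and 164 CPM at 0 h, 165 and 168.5 CPM at 1 h, 152 and 155.5 CPM at 3 h, and 58.1 and 58.0 CPM at 6 h. The share kept 90.7% of its 0 h level at 3 h, and at 6 h it was 37.7% of its 3 h level (log2 change -1.41, SE 0.0529, adjusted p = 1.38e-14). Late and early change differed by -1.26 on the log2 scale (adjusted p = 2.3e-10). GTPBP4 (ENSG00000107937, chromosome 10, 1034338 to 1065876), a GTPase of large ribosomal subunit assembly, stood at 103 and 104 CPM at 0 h, 101 and 100.1 CPM at 1 h, 86.8 and 90.4 CPM at 3 h, and 40.2 and 42.1 CPM at 6 h (late log2 change -1.11, adjusted p = 2.35e-12). DAB2, an endocytic adaptor that also acts in TGF-beta signalling, stood at 81.1 and 81.6 CPM at 0 h, 86.7 and 83.2 CPM at 1 h, 74.9 and 77.8 CPM at 3 h, and 36.1 and 35.7 CPM at 6 h (late log2 change -1.09, adjusted p = 1.15e-10). In each of these genes both 6 h libraries also lay below the 1 h libraries. Lying below those of 0 h and 3 h was a condition of membership.

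Further members of this group with large late falls were SLC25A12, the mitochondrial aspartate-glutamate carrier (-1.43); RPF1, a ribosome production factor (-1.24); TIPIN, a replication fork protector (-1.18); and ACVR1B, an activin receptor (-1.08). SLC25A12 overlaps HAT1 and METAP1D, so its count is uncertain. TIPIN was measured at 3.01 and 3.73 CPM at 6 h and at 6.69 and 8.55 CPM at 3 h, the lowest levels among the members named here. More abundant members included HSPA8, the constitutive heat shock protein of the cytosol, at 622 and 607 CPM at 6 h, against 1105 and 1093 CPM at 3 h and 1187 and 1210 CPM at 0 h. HSPA8 thus held 91.7% of its 0 h share at 3 h and 55.9% of its 3 h share at 6 h (log2 change -0.84, adjusted p = 1.13e-13). The splicing regulators HNRNPF (-0.85) and HNRNPDL (-0.50), the initiation factor subunit EIF3A (-0.54), the proteasome subunit PSMD6 (-0.64) and the glycolytic enzyme HK2 (-0.39) were also in the group. Per the authors' deposited table, shCtrl half-lives were 3.03 h for CTGF, 3.41 h for GTPBP4 and 4.23 h for HSPA8.

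**Figure D2:**
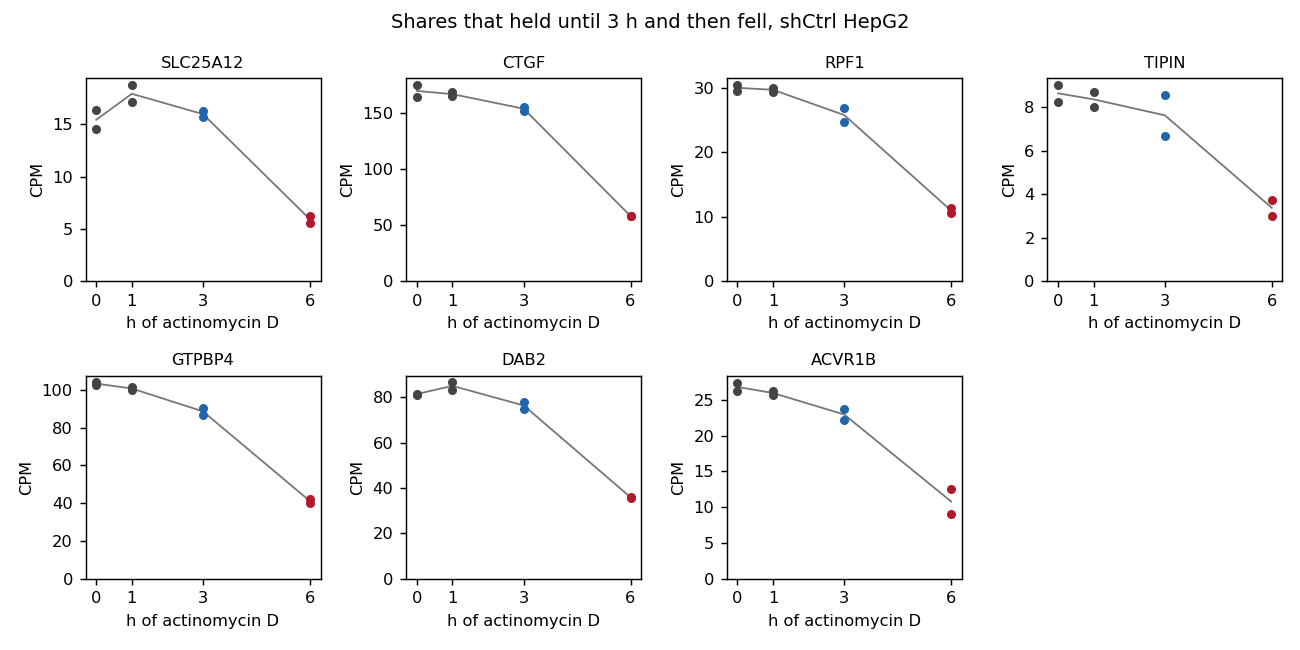
CPM of 7 genes with large late falls among those that held until 3 h, in each shCtrl library (points) with group means (line), against hours of actinomycin D. Points at 0, 1 and 3 h lie near each other. The 6 h points lie lowest in all 7 panels, which against 0 h and 3 h was a condition of membership. Each panel has its own scale from 0.

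The mirror group, steady until 3 h and then higher, held 179 genes (1.2%), with a median late log2 change of 0.45. It held 89 genes without shCtrl 3 h replicate 1 and 92 without shCtrl 3 h replicate 2. CCL20 (ENSG00000115009, chromosome 2, 228678558 to 228682272), a chemokine that attracts CCR6-bearing lymphocytes, had 125 and 114 CPM at 6 h, against 70.4 and 65.2 CPM at 3 h (log2 change 0.82, SE 0.057, adjusted p = 1.86e-10). It had stood at 64.0 and 62.9 CPM at 0 h and at 49.4 and 48.0 CPM at 1 h. Its 6 h libraries thus also lay above the 1 h libraries, while lying above those of 0 h and 3 h was a condition of the group. ALB, which encodes albumin, and A2M, which encodes the protease inhibitor alpha-2-macroglobulin, also belonged here. ALB had 8767 and 8960 CPM at 6 h, against 5699 and 5589 CPM at 3 h and 4805 and 4945 CPM at 0 h (late log2 change 0.65, SE 0.0339, adjusted p = 2.38e-12). Its rise from 0 h to 3 h (0.21) lay within the limit of the group but was itself called. A2M rose by 0.63 after a change of 0.08 from 0 h to 3 h. The largest late rises in the group were MAMDC4 (1.28), the fatty acid omega-hydroxylase CYP4V2 (0.84), the noncoding entry RP11-511B23.1 (0.83) and CCL20. MAMDC4 overlaps PHPT1, so its count is uncertain.

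The 8 largest rises were smaller than the 8 largest falls. After MAMDC4, with 12.4 and 11.5 CPM at 6 h against 5.07 and 4.74 CPM at 3 h, they were PRICKLE4 (1.14), which overlaps FRS3 and USP49; ODAM, a secreted protein of tooth enamel formation (1.11); C7, a terminal complement component (1.05); SLC38A4, a liver amino acid transporter (1.01); the noncoding entry AF127936.7 (0.96); CREBRF, a regulator of the stress factor CREB3 (0.94); and SLC38A11 (0.93). In all 8 the 6 h libraries lay above the 3 h libraries, which their choice required. CREBRF had 6.95 and 7.51 CPM at 6 h, against 3.61 and 3.93 CPM at 3 h, and before the drug 10.4 and 8.62 CPM, so its share at 3 h was 39.9% of its 0 h share.

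CREBRF was among 217 genes (1.46%) that were lower at 3 h than at 0 h and then higher at 6 h than at 3 h, as were ODAM, C7, SLC38A4 and AF127936.7. This set and the next are described without a test of the turn, since both comparisons use the 3 h libraries. The median late log2 change of the set was 0.40, and it counted 144 genes without shCtrl 6 h replicate 1. ODAM had 13.1 and 12.5 CPM at 6 h, against 6.77 and 5.04 CPM at 3 h and 8.85 and 11 CPM at 0 h. At higher abundance, AKR1C1, an aldo-keto reductase that inactivates progesterone, had 454 and 425 CPM at 6 h, against 280 and 264 CPM at 3 h and 410.2 and 434.5 CPM at 0 h. Its neighbour AKR1C2 had 122 and 120 CPM at 6 h, against 78.2 and 71.9 CPM at 3 h and 103 and 110 CPM at 0 h. Reads can be split between these near-identical paralogs, so the separate values are uncertain. EIF4A2, an RNA helicase of translation initiation, and VEGFA, the endothelial growth factor, took the same course, with late log2 changes of 0.45 and 0.44 after changes of -0.50 and -0.66.

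The opposite turn, higher at 3 h than at 0 h and then lower at 6 h, was taken by 317 genes (2.13%; median late log2 change -0.35). SQLE, the squalene epoxidase of cholesterol synthesis, had 185 and 181 CPM at 0 h, 215 and 220.1 CPM at 1 h, 227 and 232 CPM at 3 h, and 112 and 118 CPM at 6 h. Its 6 h mean was 50.2% of its 3 h mean (SE of the log2 change 0.0552, adjusted p = 6.28e-12). LDHA, lactate dehydrogenase A, had 326.5 and 338.5 CPM at 6 h, against 540 and 555 CPM at 3 h and 411 and 420 CPM at 0 h (late log2 change -0.72, adjusted p = 7.39e-11). SLC16A6, a monocarboxylate transporter, had 4.87 and 5.86 CPM at 6 h, against 10.8 and 12.1 CPM at 3 h and 5.38 and 4.48 CPM at 0 h, but overlaps ARSG. PTP4A3, a phosphatase of the PRL family (-1.11), and FBXO36, an F-box gene that overlaps TRIP12 (-1.2), completed the 4 largest. In SQLE, LDHA and PTP4A3 the 3 h libraries were the highest and the 6 h libraries the lowest of the 4 times.

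Many regulators of transcription and signalling had fallen before 3 h and fell further by 6 h. Over all tested genes 19.8% were lower and 18.8% higher at 6 h than at 3 h. Of 45 tested immediate early genes 22 were lower at 6 h and 1 was higher, with a median late log2 change of -0.53, against 0.02 for all tested genes; their median from 0 h to 3 h was -2.41. RHOB, a short-lived small GTPase, had 14.8 and 15.3 CPM at 6 h, against 53.3 and 49.9 CPM at 3 h, after 474 and 482 CPM at 0 h (late log2 change -1.78, adjusted p = 7.44e-16). MYC had 9.54 and 11.2 CPM at 6 h, against 13.91 and 14.95 CPM at 3 h, after 176 and 173 CPM at 0 h. Its late log2 change was -0.48 (adjusted p = 0.00034) after -3.60 from 0 h to 3 h, and the intervals differed by 3.12 (adjusted p = 1.5e-12). In 32 of the 45 genes the late change was called above the early change, where 13.9% of all tested genes were called so. The member that rose was KLF6, a zinc finger transcription factor named here after its values were seen, at 0.44 after -2.18 from 0 h to 3 h.

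Feedback genes of signalling were also more often lower than higher, where 19.8% of all tested genes were lower and 18.8% higher. Of 19 tested inhibitors of the ERK pathway 6 were lower and 1 higher (median late log2 change -0.33), among them SPRED2, which blocks RAF activation, with 25.5 and 25.4 CPM at 6 h and 68.85 and 71.87 CPM at 3 h (-1.47), and ERRFI1, an inhibitor of the EGF receptor (-0.61). Of 38 genes of TGF-beta, BMP, Notch and Wnt signalling 20 were lower and 4 higher (median -0.31). They included TGFBR2, the type II TGF-beta receptor, at 225.5 and 227.7 CPM at 6 h and 392 and 398 CPM at 3 h (-0.80), and TGIF2, a repressor of TGF-beta targets (-0.92). Of 8 genes of the ZFP36, BTG and TOB families, whose products bring deadenylases to mRNAs, 6 were lower and 0 higher (median -0.37), with TOB1 at -0.86 and ZFP36L1 at -0.71. Of 35 cytokine, NF-kB and survival genes 7 were lower and 7 higher, shares near those of all tested genes. With library size alone 14 were lower and 5 higher. Of 39 liver transcription factors and nuclear receptors 15 were lower and 1 higher (median -0.28). XBP1, the transcription factor of the unfolded protein response, had 50.8 and 48.7 CPM at 6 h, against 139 and 137 CPM at 3 h and 437 and 431 CPM at 0 h (late log2 change -1.47). NR1D2, a clock repressor, changed by -0.54 but overlaps NKIRAS1.

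Messages of the m6A machinery and of the exosome were more often lower than higher, where 19.8% of all tested genes were lower and 18.8% higher. Of 23 genes of m6A writers, readers and erasers 14 were lower and 5 higher (median late log2 change -0.31). YTHDF1, a cytoplasmic m6A reader, had 31.2 and 29.5 CPM at 6 h, against 59.0 and 58.1 CPM at 3 h (-0.95, adjusted p = 1.54e-10), and RBM15B, which guides the writer complex, changed by -0.87 but overlaps VPRBP. METTL14 itself changed by -0.50 and SETD2 by -0.53. Of 26 genes of the exosome and nuclear decay 13 were lower and 4 higher (median -0.24), with EXOSC9, which overlaps CCNA2, at -1.22 and TTC37, a scaffold of the cytoplasmic exosome partner SKI, at 0.45. Of 49 genes of deadenylation, decapping and nonsense-mediated decay 13 were lower and 11 higher, shares near those of all tested genes; the decapping helicase DDX6 had 59.4 and 62.5 CPM at 6 h, against 109 and 113 CPM at 3 h (-0.86), and RQCD1, a deadenylase subunit also called CNOT9, changed by -0.58. The median of this list was 0.06 and turned to -0.07 with library size alone.

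More genes of DNA replication were lower than higher at 6 h, after more had been higher than lower in the preceding 3 h. Over all tested genes 19.8% were lower and 18.8% higher at 6 h, and 33% had been higher and 28.1% lower at 3 h. Of 58 replication genes 31 were lower at 6 h and 7 higher (median late log2 change -0.27), while from 0 h to 3 h 30 had been higher and 18 lower (median 0.26). The change between the intervals was called downward in 32 of the 58, where 18.1% of all tested genes were called so. CDC6, which loads the replicative helicase, had 20.7 and 18.6 CPM at 6 h, against 45.7 and 46.7 CPM at 3 h (-1.23, adjusted p = 2.68e-11). FEN1, the flap endonuclease of lagging strands, changed by -1.57 but overlaps FADS2 and TMEM258, and the mismatch repair gene MSH6, which overlaps FBXO11, by -1.38. Of 58 mitosis genes 21 were lower and 10 higher (median -0.09), with PLK1, a mitotic kinase, at -0.79 and the phosphatase CDC25A at -1.56. No replication-dependent histone among 24 tested was called at an adjusted p under 0.05 by edgeR, 1 had an unadjusted p under 0.05, and DESeq2 called 0; 1 was called lower with library size alone and in both limma fits, and 1 higher and 1 lower without shCtrl 6 h replicate 2.

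**Figure D3:**
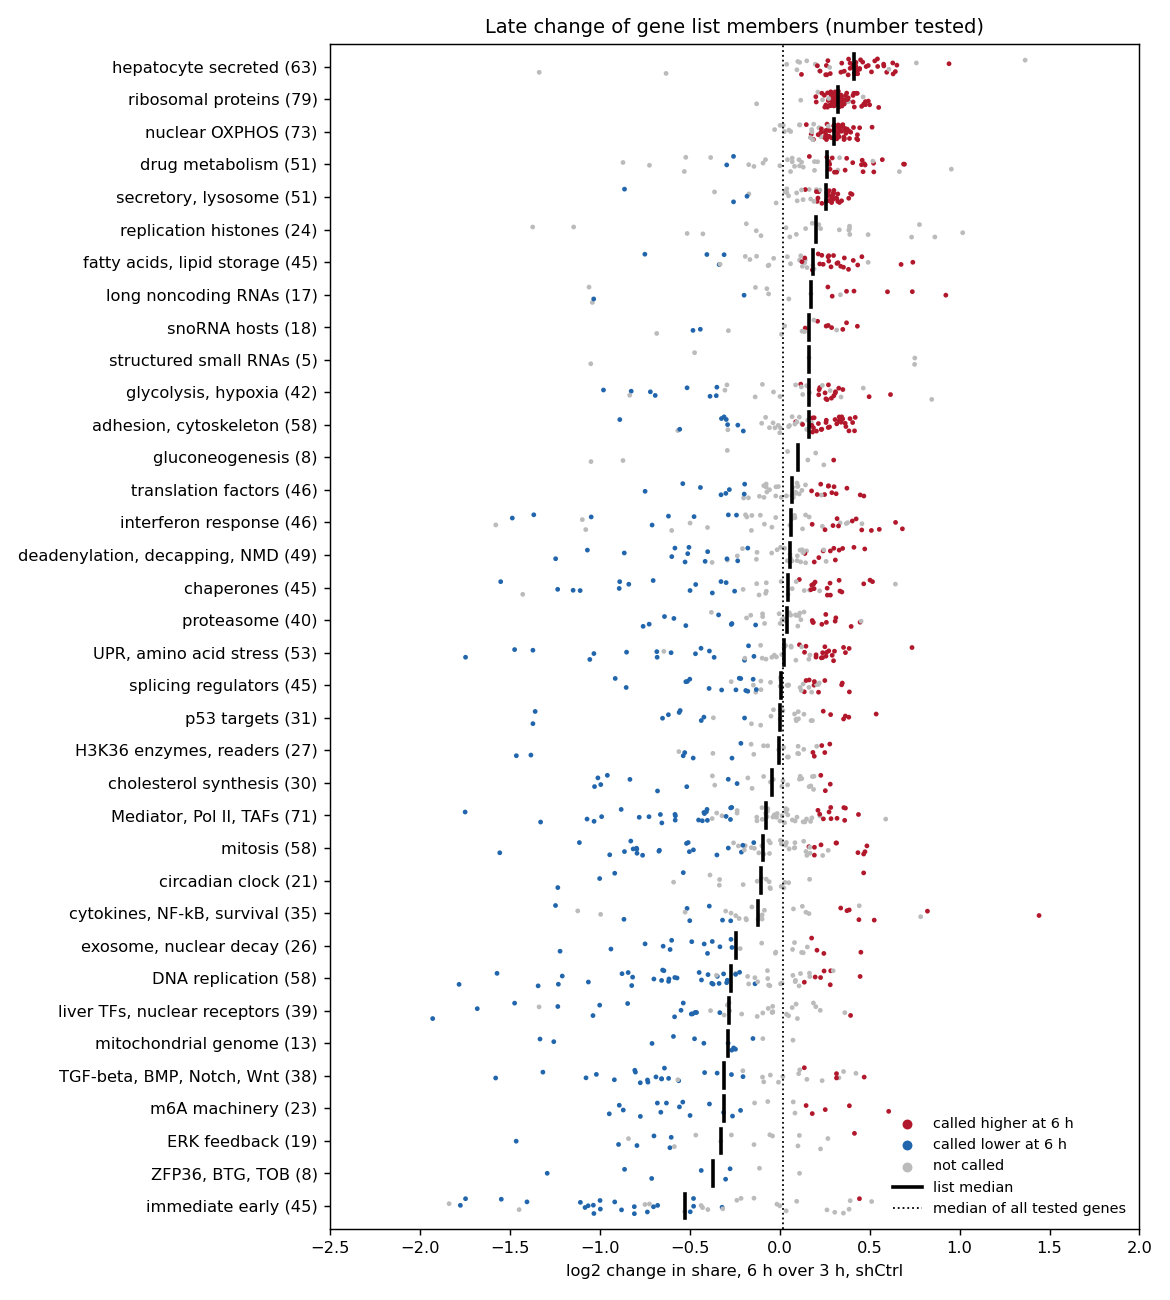
Log2 change in share at 6 h over 3 h in shCtrl cells for the tested members of 36 gene lists (points; red called higher, blue called lower, grey not called), with list medians (bars) and the median of all tested genes (dotted line). Secreted liver proteins, ribosomal proteins and respiratory chain genes lie at the top and immediate early genes at the bottom; 2 uncalled members fall outside the axis.

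The mitochondrial genome gave transcripts that kept very different shares, although its genes are copied as long joint precursors. Of its 13 protein-coding genes 11 were lower at 6 h than at 3 h and 0 higher, where 19.8% of all tested genes were lower. MT-CYB, cytochrome b, had 4289 and 4180 CPM at 0 h, 3238 and 3241 CPM at 1 h, 1496 and 1561 CPM at 3 h, and 634 and 578 CPM at 6 h (late log2 change -1.33, SE 0.0408, adjusted p = 5e-16). MT-ND2, a complex I subunit, had 745 and 717 CPM at 6 h, against 1666 and 1828 CPM at 3 h and 4014 and 3783 CPM at 0 h (late log2 change -1.26). Over the preceding 3 h they had changed by -1.47 and -1.16, and the intervals did not differ past the threshold (adjusted p = 0.14 and 0.45). MT-ND5 and MT-CO3 met the rule for the group that held until 3 h and then fell, which does not use the 1 h libraries. MT-ND5 had 5877 and 5599 CPM at 0 h and 7535 and 7640 CPM at 1 h, so its share had first risen. It had 6417 and 7012 CPM at 3 h, and 4505 and 4408 CPM at 6 h. MT-CO1, a subunit of cytochrome oxidase, had 11760 and 11300 CPM at 6 h, against 10800 and 11110 CPM at 3 h, and did not pass (log2 change 0.07, adjusted p = 0.0697). At 6 h the mean share was 14.3% of the 0 h mean for MT-CYB and 130% for MT-CO1. Together the mitochondrial transcripts took 4.64% and 4.56% of the counts at 6 h, against 5.94% and 6.28% at 3 h.

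**Figure D4:**
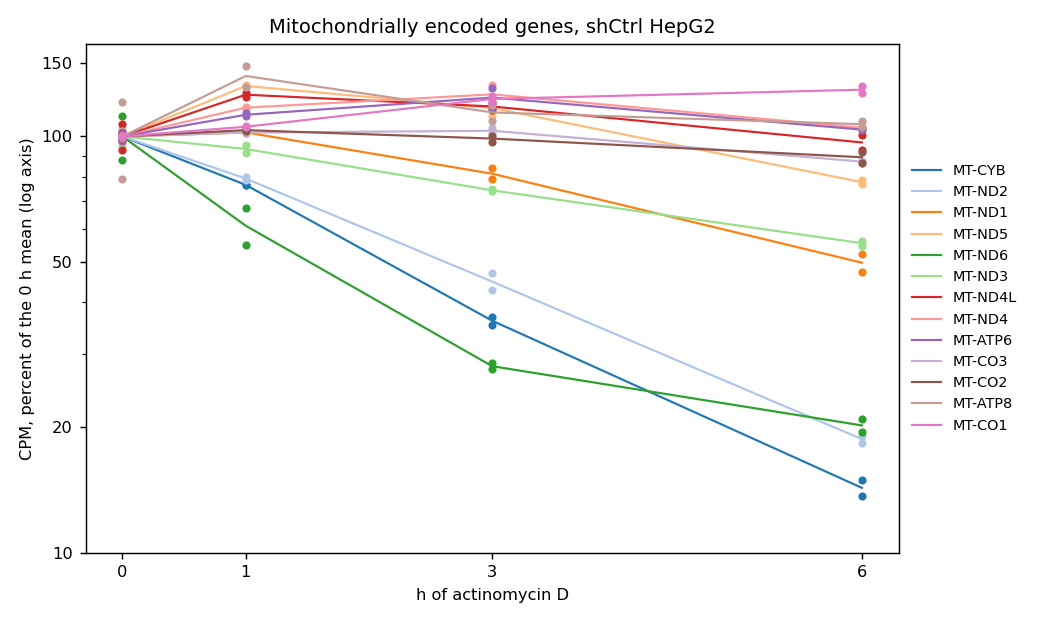
CPM of the 13 mitochondrially encoded protein genes in each shCtrl library (points) and as group means (lines), as a percent of the gene's 0 h mean on a log axis, against hours of actinomycin D. MT-CYB, MT-ND2 and MT-ND6 lie lowest at 6 h and MT-CO1 highest.

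Nuclear genes of the same respiratory chain moved the other way, where 18.8% of all tested genes were higher and 19.8% lower. Of 73 nuclear-encoded genes of oxidative phosphorylation 56 were higher at 6 h and 0 lower (median late log2 change 0.30). UQCRC2, a complex III core subunit, had 584 and 590 CPM at 6 h, against 485 and 454 CPM at 3 h (0.32), and NDUFA4 rose by 0.36. Of 79 ribosomal protein genes 69 were higher and 0 lower (median 0.32), with RPL23A at 202 and 198 CPM at 6 h and 155.4 and 146.5 CPM at 3 h (0.41). With library size alone as the scale 30 respiratory and 48 ribosomal genes were called higher and 0 lower in either list. Translation factors gave 12 higher and 8 lower of 46, or 7 and 15 under that scaling, and their median of 0.07 turned to -0.05 under that scaling. Proteasome genes gave 10 higher and 9 lower of 40, or 3 and 13 with library size alone, where their median turned from 0.04 to -0.08, with PSMD5 (-0.76), which overlaps PSMD5-AS1, and PSMD6 among the lower.

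Most messages of secreted liver proteins were higher in share at 6 h, where 18.8% of all tested genes were higher and 19.8% lower. Of 63 genes of secreted plasma proteins 47 were higher at 6 h and 0 lower, with a median late log2 change of 0.41, against 0.02 for all tested genes; 37 were higher and 0 lower with library size alone. ALB and A2M, given above, had the smallest p-values of the list. ALB took 0.786% and 0.809% of the counts at 6 h, against 0.561% and 0.545% at 3 h. Of 51 genes of drug metabolism 21 were higher and 2 lower (median 0.26), led by AKR1C1 and AKR1C2 (0.69 each). Of 45 genes of fatty acid synthesis, storage and oxidation 23 were higher and 4 lower (median 0.18). FABP1, the liver fatty acid binding protein, had 212 and 197 CPM at 6 h and 128.5 and 127.7 CPM at 3 h (0.67), while PLIN2, which coats lipid droplets, had 140 and 132 CPM at 6 h and 235 and 223 CPM at 3 h (-0.75). Of 51 genes of the secretory pathway and lysosome 31 were higher and 3 lower (median 0.26), with the oligosaccharyltransferase subunit STT3A at 0.33 and SRP68, of the signal recognition particle, at -0.86. Of 58 genes of adhesion and cytoskeleton 29 were higher and 8 lower, with 13 higher and 13 lower under library size alone; LAMC1, a laminin chain, rose by 0.41 and TJP1, a tight junction scaffold, fell by 0.89.

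Genes of cholesterol synthesis and uptake were more often lower than higher at 6 h, after being more often higher than lower at 3 h. Of 30 genes 9 were lower at 6 h and 3 higher (median late log2 change -0.04). From 0 h to 3 h 22 had been higher and 6 lower (median 0.51). Over all tested genes 19.8% were lower and 18.8% higher at 6 h, and 33% had been higher and 28.1% lower at 3 h. In 18 of the 30 the change between the intervals was called downward, where 18.1% of all tested genes were called so. In shSETD2 cells 11 of the list were higher and 8 lower at 6 h (median 0.12), and in shMETTL14 cells 6 were higher and 9 lower (median 0.08). A difference between the lines was not tested for the list. HMGCS1, a synthase early in the pathway, was named after its values were seen and had 256 and 277 CPM at 6 h, against 375 and 388 CPM at 3 h and 198 and 195 CPM at 0 h. Its late log2 change was -0.52 (adjusted p = 1.09e-06) after 0.96 from 0 h to 3 h.

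Stress response genes went in both directions, as did all tested genes, of which 18.8% were higher and 19.8% lower. With library size alone 1313 of the 14887 tested genes were higher and 4015 lower. Of 53 genes of the unfolded protein and amino acid stress responses 19 were higher and 16 lower at 6 h, or 10 higher and 19 lower with library size alone. TRIB3, a pseudokinase induced by ATF4, had 29.1 and 25.2 CPM at 6 h, against 97.7 and 85.1 CPM at 3 h (-1.75, adjusted p = 2.98e-12), and SESN2, which restrains mTORC1, changed by -1.37. Of 45 chaperone genes 16 were higher and 14 lower, or 5 and 17 with library size alone; beside HSPA8, its partner DNAJA2 had 66.5 and 70.5 CPM at 6 h and 125 and 129 CPM at 3 h (-0.89). Of 31 p53 targets 9 were lower and 6 higher, or 11 and 3 with library size alone, among them CDKN1A, the cell cycle inhibitor p21 (-0.65). Of 46 interferon response genes 12 were higher and 8 lower, or 7 and 11 with library size alone, with B2M, the light chain of MHC class I, at 0.40 and TAP1, its peptide transporter, at 0.64. Of 42 glycolysis and hypoxia genes 16 were higher and 8 lower, or 6 and 9 with library size alone. Of 8 gluconeogenic genes 1 passed, PC, which encodes pyruvate carboxylase (0.30, adjusted p = 0.0297), and lost its call without 3 of the 4 libraries in turn and with library size alone (highest adjusted p = 0.282 over all alternatives).

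Genes of the transcription machinery were lower more often than higher. Of 71 genes of Mediator, RNA polymerase II and general factors 24 were lower and 11 higher (median late log2 change -0.08). GTF2B, the initiation factor TFIIB, had 4.04 and 3.55 CPM at 6 h, against 13.4 and 12.3 CPM at 3 h (-1.75, adjusted p = 1.1e-09), and TAF7 changed by -0.99. IWS1, a partner of SPT6 in elongation, had 20.5 and 22.8 CPM at 6 h, against 59.1 and 60.3 CPM at 3 h (-1.47). It was listed with 27 H3K36 methylation enzymes and readers, of which 7 were lower and 5 higher, or 11 and 1 with library size alone. Of 399 zinc finger genes named ZNF 56 were lower and 21 higher, both smaller shares than the 19.8% and 18.8% of all tested genes. From 0 h to 3 h 321 of them had been lower and 13 higher, where 28.1% of all tested genes were lower and 33% higher. Their median late log2 change was -0.05, against -1.21 in the earlier interval. In 234 of the 399 the late change was called above the early change, where 13.9% of all tested genes were called so. ZNF24 (-0.84) and ZNF622 (-1.59) had the smallest p-values of that list.

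Long noncoding RNAs went in both directions, with more higher than lower, where 18.8% of all tested genes were higher and 19.8% lower. NEAT1, the scaffold of paraspeckles, had 118.5 and 120.1 CPM at 0 h, 411 and 418 CPM at 1 h, 458 and 487 CPM at 3 h, and 778 and 797 CPM at 6 h (late log2 change 0.74, adjusted p = 4.22e-09). LINC00657, also called NORAD, which binds Pumilio proteins, had 106 and 129 CPM at 6 h, against 223 and 258 CPM at 3 h (-1.03, adjusted p = 7.26e-07). MALAT1, an RNA of nuclear speckles, had 950.1 and 1107 CPM at 6 h, against 637 and 721 CPM at 3 h (0.60). Of 17 long noncoding RNAs tested 7 were higher and 2 lower, and of 18 host genes of small nucleolar RNAs 8 were higher and 2 lower, including DANCR (0.37) and SNHG14 (0.43), which overlaps UBE3A. GAPDH and ACTB, which often serve as reference genes, also changed in share: GAPDH rose by 0.30 (adjusted p = 0.00021), and ACTB by 0.09 (adjusted p = 0.0497), a call that was lost without any 1 of the 4 libraries and whose sign turned to -0.03 with library size alone.

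The changes of the first hour, which share no library with the late comparison, overlapped it in part; 29.7% of tested genes had changed by 1 h. Of 2941 genes lower at 6 h than at 3 h, 930 (31.6%) had also been lower at 1 h than at 0 h, which is 39.2% of the 2374 genes lower in the first hour (15.9% of those tested). A further 172 (5.85% of the late falls) had been higher in the first hour. Of the 2793 late rises 1010 (36.2%) had been higher in the first hour, which is 49.3% of the 2047 genes higher then (13.8% of those tested), and 169 (6.05%) had been lower. Genes lower in the first hour held TGTANATA in 16.7% of their 3′ UTR ends and ATTTA in 57.0%.

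The same interval was measured in the knockdown lines, whose libraries the shCtrl comparison did not use. The hairpin targets were lower in their lines: SETD2 had 16.7 and 21 CPM in shSETD2 cells, against 40.1 and 41.9 CPM in shCtrl cells, at 6 h, and METTL14 had 5.85 and 7.12 CPM in shMETTL14 cells, against 14.4 and 15.2 CPM in shCtrl cells. Of the 2941 late falls of shCtrl, 2229 (75.8%) were also called lower and 4 higher at 6 h in shSETD2 cells, where 19.9% of all tested genes were called lower. In shMETTL14 cells 2418 (82.2%) were called lower and 1 higher, where 21.8% of all tested genes were called lower. Of the 2793 late rises 2035 (72.9%) were called higher in shSETD2 cells and 1989 (71.2%) in shMETTL14 cells, where 19.2% and 17.7% of all tested genes were called higher. Of the 421 genes that held until 3 h and then fell, 350 (83.1%) were called lower in shSETD2 cells and 376 (89.3%) in shMETTL14 cells, and 0 were called higher in either line. Those calls cover the change from 3 h to 6 h alone, and whether the genes held until 3 h in the knockdown lines was not tested. CTGF had 324 and 320 CPM at 0 h, 138 and 135 CPM at 3 h, and 56.4 and 54.1 CPM at 6 h in shSETD2 cells. In shMETTL14 cells it had 208 and 213 CPM at 0 h, 74.4 and 75 CPM at 3 h, and 21.2 and 24.2 CPM at 6 h. Its share had thus already fallen by 3 h in both knockdown lines, unlike in shCtrl cells. Tested directly, the late change differed between shSETD2 and shCtrl in 25 genes (0.168% of those tested), being higher in 18 (0.121%) and lower in 7 (0.047%), and between shMETTL14 and shCtrl in 45 (0.302%). These counts rest on single libraries: the shSETD2 6 h libraries differed more from each other than any other pair, and the shSETD2 count was 52 without shSETD2 6 h replicate 1 and 1253 without shSETD2 6 h replicate 2, while the shMETTL14 count was 141 and 143 without the same libraries. Without 1 of the 4 shCtrl libraries the counts ran from 11 to 22 for shSETD2 and from 17 to 26 for shMETTL14.

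**Figure D5:**
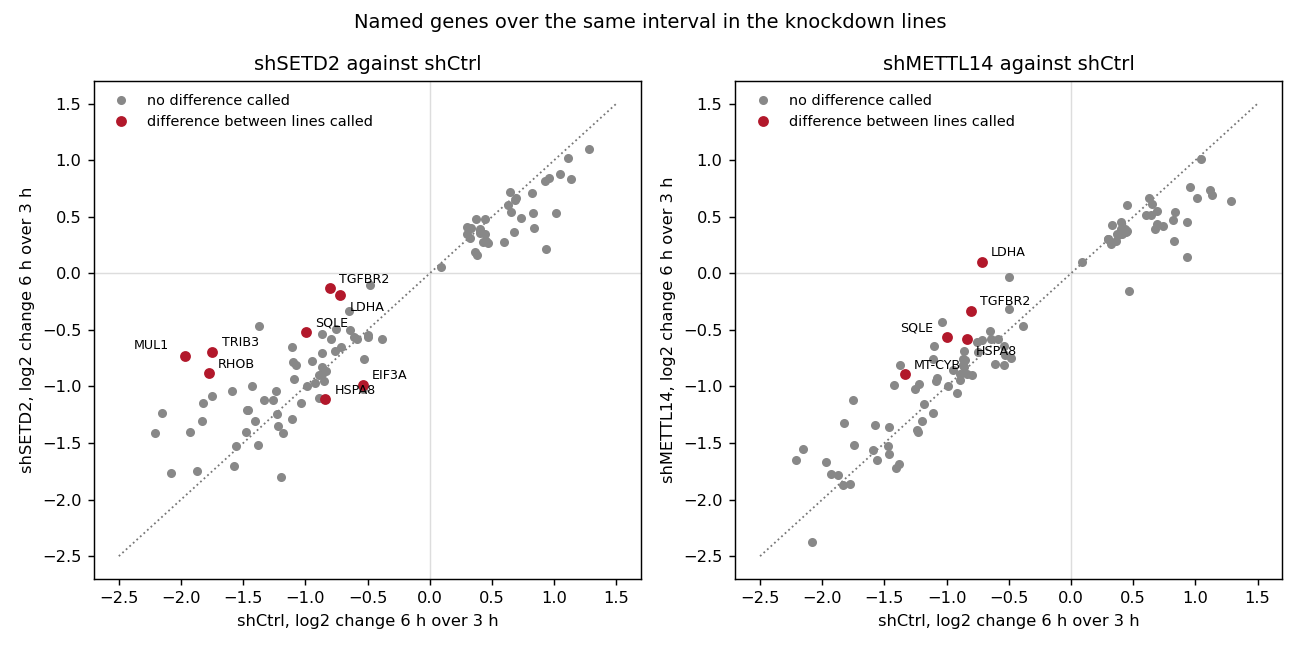
Log2 change at 6 h over 3 h of 99 named genes in shSETD2 (left) or shMETTL14 (right) cells on the vertical axis against that in shCtrl cells on the horizontal axis, with genes whose change differed between the lines in red and equality as a dotted line. LDHA, at -0.72 in shCtrl, lies at 0.10 in shMETTL14.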

How the data were processed

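The count per gene was used as deposited by the authors, for shCtrl, shSETD2 and shMETTL14 HepG2 libraries at 0, 1, 3 and 6 h (12 groups of 2). The submitters' processing notes name GRCh37 and, without order or settings, HTSeq 0.6.1p1, TopHat and cutadapt. Neither annotation release nor strand use is stated, so genes that overlap another with at least 10% of their count were called uncertain. RPKM values in the authors' deposited table equal count over exon length and column total (largest relative difference 9.3e-07). The half-life in hours is the authors' deposited score for each gene and line of this same study, so it is not independent of the changes described here. Of 34618 genes 9318 had no count. Columns were assigned by their names, with 0 value columns unassigned.

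The counts were fitted with edgeR 4.0.16 under R 4.3.3 (robust quasi-likelihood F test, TMM scaling, filterByExpr, two-sided, Benjamini-Hochberg at 0.05 over 14887 genes). All 24 libraries entered 1 model of group means, leaving 12 residual degrees of freedom (biological coefficient of variation 5.04%). The code was tested on simulated data. Alternatives were DESeq2 1.42.0, limma 3.58.1 on log2(RPKM + 0.1) and log2(RPKM + 1), other scalings and filters, fewer groups, a replicate block, and leaving out in turn the shCtrl libraries at 3 h and 6 h and the shSETD2 libraries at 6 h. The libraries compared, the 42 gene lists (5 of them markers) and the naming rule were chosen with earlier results of these data known. At 5 CPM or more, the rule names the 8 largest falls and rises with no overlap between the times, the 8 largest of the steady-then-lower and 4 of the steady-then-higher genes, 4 of each turning group, up to 2 called members per list with the smallest p, and SETD2, METTL14, MYC, ALB, GAPDH, ACTB and MALAT1. Entries that share a symbol (186) or whose symbol became a number (29) were not named. Transcript features came from GENCODE release 29 by gene ID. Floors cover counting error only. Results on some genes that the rule names are not reported here.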

Additional observations from a re-analysis of the deposited data

Results flagged for a closer look

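In 13 cases the late log2 change of a named gene differed between a knockdown line and shCtrl by edgeR's quasi-likelihood test of the difference, with Benjamini-Hochberg adjustment over all genes. In shSETD2 cells the loss after 3 h was smaller than in shCtrl for MUL1 (shSETD2 minus shCtrl 1.24, adjusted p = 0.000629), TRIB3 (1.06, adjusted p = 0.000218), RHOB (0.892, adjusted p = 8.18e-06) and TGFBR2 (0.672, adjusted p = 3.35e-07). MUL1 had 12.9 and 11.2 CPM at 6 h and 20.8 and 19.4 CPM at 3 h in shSETD2 cells, against 2.85 and 3.73 CPM at 6 h and 13.2 and 12.4 CPM at 3 h in shCtrl cells. LDHA (0.532, adjusted p = 0.000218) and SQLE (0.477, adjusted p = 0.00426) differed in the same direction. EIF3A (-0.444, adjusted p = 0.000635) and HSPA8 (-0.276, adjusted p = 0.016) lost more in shSETD2 than in shCtrl cells.

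In shMETTL14 cells LDHA differed most from shCtrl, by 0.822 (adjusted p = 2.95e-07), with 1127 and 1229 CPM at 6 h and 1096 and 1099 CPM at 3 h in shMETTL14 cells, against 326.5 and 338.5 CPM at 6 h and 540 and 555 CPM at 3 h in shCtrl cells. TGFBR2 (0.474, adjusted p = 9.02e-05), MT-CYB (0.443, adjusted p = 0.000326), SQLE (0.435, adjusted p = 0.0129) and HSPA8 (0.263, adjusted p = 0.0241) also lost less than in shCtrl cells. The calls of HSPA8 in both lines and of SQLE in shMETTL14 were lost when single shCtrl libraries were left out. The highest adjusted p over all alternatives was 0.152 for HSPA8 in shSETD2 (without the filter on low counts), 0.124 for HSPA8 in shMETTL14 and 0.0772 for SQLE. Both comparisons use the same shCtrl libraries, so they are not independent of each other. The 6 h libraries of shSETD2 differed from each other by a chi-square of 19.5 per degree of freedom, against 4.65 for the 6 h libraries of shCtrl; the part of that spread in these differences was not tested.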

How the results depend on the processing

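Counts of genes higher at 6 h than at 3 h (2793) were 1313 with library size alone and 1272 and 1276 with limma on log2(RPKM + 0.1) and log2(RPKM + 1), while genes lower (2941) came to 4015, 4075 and 3968; without the filter on low counts they were 1927 and 3155. The median of all genes moved from 0.02 to -0.11 with library size alone. Genes whose late change was called below the early change (2690) were 1668, 1543 and 1554 under the same settings. Genes higher by 3 h and then lower (317) were 202 with DESeq2. Differences between lines numbered 79 (shSETD2, 25 in the model reported) and 83 (shMETTL14, 45) with the replicate block, 78 and 99 with DESeq2, and 39 and 94 with limma on log2(RPKM + 0.1). With the 4 shCtrl libraries at 3 h and 6 h and the 2 shSETD2 6 h libraries left out in turn (no other library was), ranges were 11 to 1253 and 17 to 143 for those differences, 1581 to 3370 for late below early, 259 to 525 for steady then lower, 89 to 240 for steady then higher and 144 to 278 for lower then higher. Leaving out each shSETD2 6 h library was added after the data were seen; the cause was not tested for any of these. ACTB turned to -0.0343 with library size alone and with both limma fits, and its call was lost in 7 other settings. List medians that lay beyond the spread between replicates and turned were deadenylation (-0.0663 with library size alone, -0.0632 and -0.0573 with limma), translation factors (-0.0525, -0.0524 and -0.0492), gluconeogenesis (-0.0223 with library size alone, -0.0443 to 0.122 with these libraries left out) and long noncoding RNAs (-0.0317 to 0.231 with these libraries left out). Medians nearer 0 also turned with library size alone: proteasome (-0.08), unfolded protein and amino acid stress (-0.10), chaperones (-0.08), interferon response (-0.06), p53 targets (-0.12) and splicing regulators (-0.12). Without shCtrl 6 h replicate 1 replication histones (-0.06) and structured small RNAs (-0.14) turned, and the near-0 medians of splicing, stress, p53 and H3K36 lists and others turned in further settings. PC lost its call in 7 settings, with adjusted p up to 0.282; the other 99 named genes kept call and direction in every setting. With the replicate block all 101 named genes kept their call and direction, and the late counts were 3149 higher and 3154 lower. Deviations of same-numbered shCtrl libraries correlated between -0.192 and 0.371 over pairs of times, and the highest value was that of 6 h and 3 h. Depth limits genes near 3 counts, or 0.125 to 0.177 CPM in the 4 libraries.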

Other observations

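Over all tested genes 19.8% were lower and 18.8% higher at 6 h than at 3 h. Of 45 splicing regulators 14 were lower and 10 higher at 6 h (median late log2 change 0.01, which was -0.12 with library size alone). HNRNPF and HNRNPDL, both given above, had the smallest p-values of the list. Of 21 circadian clock genes 4 were lower and 1 higher (median -0.10); PER3, a clock repressor, had 11.4 and 13.8 CPM at 6 h, against 8.43 and 9.74 CPM at 3 h and 10.7 and 10.1 CPM at 0 h (late log2 change 0.47, adjusted p = 0.000922). Of 5 structured small RNAs tested 0 were called, 1 at an unadjusted p under 0.05, and DESeq2 called 0; leaving out a library gave 1 call higher or 1 lower. In the authors' deposited table PER3 has a shCtrl half-life of 282900 h, a value far beyond the 6 h sampled.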
